A study of Caenorhabditis elegans with 8 samples.

Results

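Synaptic vesicle release was examined through 10 genes of C. elegans, snb-1, ric-4, unc-64, rab-3, unc-13, unc-18, unc-31, snt-1, sng-1 and unc-10. They were found by symbol among 44968 gene rows of the authors' poly(A) table and by gene identifier among 25640 genes of their rRNA-depleted table, and all 10 were present in both. Synchronized young adult worms from liquid culture gave 8 RNA-seq libraries in 4 groups of 2. Wild-type animals (headed N2 L4440, the strain on the empty RNAi vector) and animals labelled RNAi CstF50 (headed cpf-1 RNAi) were each sequenced as poly(A)-selected RNA and as rRNA-depleted total RNA. CstF50, the product of cpf-1, belongs to the cleavage stimulation factor, a complex that helps to cut the 3' ends of mRNAs before the poly(A) tail is added. How the RNAi was delivered is not given in the sources used here, and no label says that the 2 libraries of a group came from separate cultures.

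A nerve terminal releases transmitter when a synaptic vesicle fuses with the plasma membrane. Synaptobrevin on the vesicle, and syntaxin and SNAP-25 on the plasma membrane, zip together as SNARE proteins and pull the membranes into contact. Synaptotagmin couples this to calcium, while UNC-18, UNC-13 and the RIM protein UNC-10 prepare vesicles and the RAB-3 GTPase helps to hold them near release sites. In worms most of these genes were found through mutants that move poorly or resist inhibitors of acetylcholine breakdown.

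The deposited poly(A) values are 1 FPKM (fragments scaled to transcript length and library size) per group, so they show no spread between libraries. The rRNA-depleted values are mean normalized counts of a condition A and a condition B, and the headers do not say which is wild type. They are therefore given only as B against A, and the tables were normalized separately, so no level is compared between them. Whole counts per library were recovered from the condition means and are given for the deeper and the shallower library of each condition. Summed over the genes recovered, the A libraries held 8287830 and 2852379 counts and the B libraries 35638137 and 15056102. The most abundant genes are missing from these sums, and no depth is known for poly(A) RNA. The target gene cpf-1 itself was not lower, at 50.5 FPKM (wild type) and 67.8 FPKM (labelled RNAi) in the authors' deposited table (q = 0.613). Its rRNA-depleted mean in the authors' deposited table was 1695 for A and 8662 for B (adjusted p = 0.00296), which was not used to name the conditions.

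All 10 release genes had a lower FPKM in the group labelled RNAi than in wild type. The poly(A) table as a whole leaned the same way, since 76.4% of all genes with values above 0 in both groups were lower. None of the 4 members that the authors had tested, snb-1, ric-4, unc-64 and sng-1, passed a q-value under 0.05, against 16.8% of all tested genes (13.6% lower and 3.12% higher). At an unadjusted p under 0.05, 2 of those 4 were lower, ric-4 and sng-1, against 28.4% of all tested genes. The other 6 members had the status of not being tested by the authors, and their levels are given as a description. In rRNA-depleted RNA, where unc-31 gives no mRNA value, 2 of 9 members were called, rab-3 and snt-1, both lower in B, against 8.31% of all genes called by the authors' adjusted p (2.77% lower and 5.54% higher). At an unadjusted p under 0.05, 4 of 9 were lower, ric-4 and sng-1 being added, against 6.15% of all genes, and none was higher, against 9.88%. These rRNA-depleted shares are over 25640 genes, including genes with few counts, which can hardly pass a test. Recovered counts of at least 10 in 2 libraries were found for 16830 genes, all 9 members among them. In whole worms, fewer neurons, less RNA per neuron and a changed share of RNA from other tissues cannot be told apart.

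**Figure D1:**
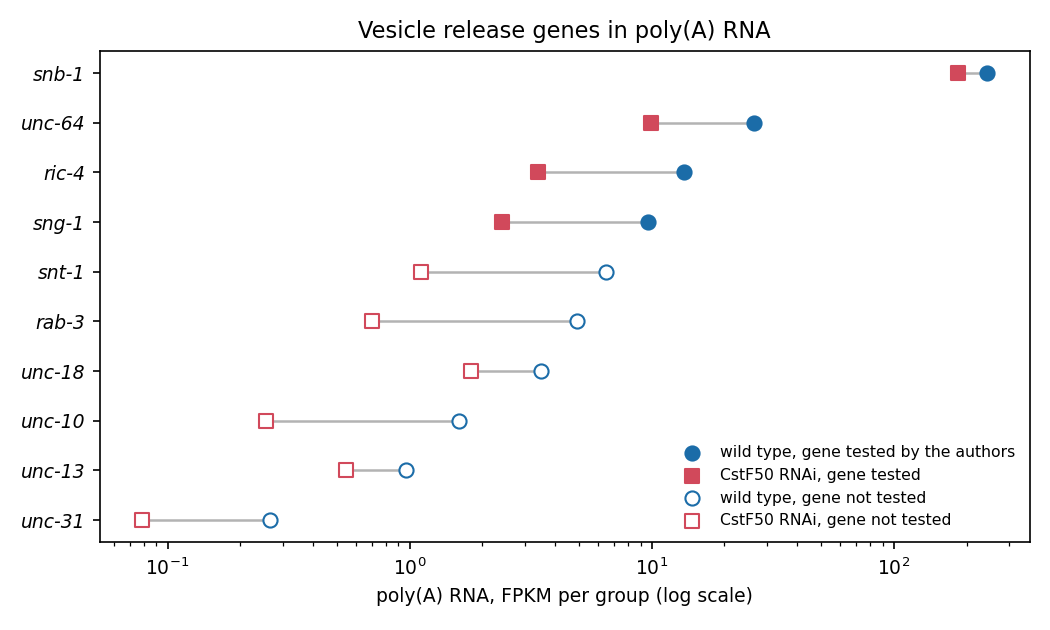
FPKM of the 10 release genes in poly(A) RNA on a log axis, with 1 point for wild type and 1 for the group labelled RNAi. Every gene was lower in the RNAi group, from 1.32-fold for snb-1 to 6.98-fold for rab-3, and there are no error bars because the table holds 1 value per group.

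Among the SNARE genes, snb-1 (T10H9.4, chromosome V, 6655534 to 6656484, ce10) encodes synaptobrevin, the vesicle SNARE. It was the most abundant member, with 244 FPKM in wild type and 184 FPKM in the RNAi group in the authors' deposited table. Its log2 fold change was -0.40 with an SE of 0.45 (q = 0.527), where the SE was implied by the authors' p-value and the size of the change. snb-1 was thus the member nearest to no difference, and against the median tested gene, at -0.90, it lay 0.49 higher (adjusted p = 0.735). It alone held 78.4% of the summed FPKM of the 10 genes in wild type and 90.1% in the RNAi group, so a sum over the list mostly reads snb-1. Without it the sum was 67.5 FPKM in wild type and 20.3 FPKM in the RNAi group.

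In rRNA-depleted RNA snb-1 had 593 counts in the deeper A library and 157 in the shallower, against 4683 and 3365 in the deeper and shallower B libraries. Divided by the size factors these are 803 and 630 normalized counts in A and 1289 and 2184 in B. Both B libraries were above both A libraries, but the B libraries stood far apart from each other. The authors' deposited table gives a mean of 717 in A and 1737 in B, a log2 fold change of 1.28 that did not pass (adjusted p = 0.544). limma-voom on the recovered counts called it higher in B by 1.05 on the log2 scale (SE 0.31, adjusted p = 0.0279), the single member called higher. Its difference moved with the library left out, from 0.80 to 1.53.

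ric-4 (Y22F5A.3, chromosome V, 10261105 to 10270289) encodes the SNAP-25 homologue, a plasma membrane SNARE. The authors' deposited table lists 13.6 FPKM in wild type and 3.40 FPKM in the RNAi group, 4.003-fold lower. The log2 fold change of -2.0 (SE 0.80) did not pass (q = 0.0639). Against the median gene it was -1.10 (adjusted p = 0.608). It was the nearest to a call among the 4 tested members.

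The rRNA-depleted counts of ric-4 were 300 and 107 in A, against 874 and 343 in B. They correspond to 406 and 430 normalized counts in A and 241 and 223 in B. The libraries of a condition lay close together and the conditions did not overlap. The authors' deposited table did not call it (log2 fold change -0.85, adjusted p = 0.128), whereas limma-voom did (-0.86, SE 0.16, adjusted p = 0.00295). A piRNA gene and an antisense ncRNA lie inside ric-4, and that ncRNA had 1 count over the 4 libraries, while the piRNA gene was not analysed here.

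unc-64 (F56A8.7, chromosome III, locus 13277160 to 13292984) encodes syntaxin, the other plasma membrane SNARE. It stood at 26.5 FPKM in wild type and 9.95 FPKM in the RNAi group in the authors' deposited table, and its log2 fold change was -1.41 (SE 0.95, q = 0.278). Its normalized counts were 925 and 831 in A, against 706 and 702 in B. The conditions were apart by a small margin. The authors' deposited table gives -0.32 (adjusted p = 0.575), and limma-voom gives -0.39 (SE 0.12, adjusted p = 0.0301), a call that was lost without the deeper A library (adjusted p = 0.379) or without the shallower one (adjusted p = 0.0725). The authors' locus joins unc-64 to 2 other protein-coding genes. One of them, set-25, reaches over its 3' end from the opposite strand, with 13.1 FPKM for wild type and 5.82 FPKM under the RNAi label in the authors' deposited table. In the rRNA-depleted table strand was not separated where it could be read, at RNA genes within unc-31, and for poly(A) RNA the strand setting is not given in the sources used here. Reads of the stretch shared with set-25 can therefore not be assigned to either gene.

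Of the partners of these SNAREs, unc-18 (F27D9.1, chromosome X, 7682367 to 7685984) encodes the SM protein that binds syntaxin. The authors' deposited table lists it untested at 3.49 FPKM in wild type and 1.79 FPKM in the RNAi group, 1.94-fold lower, near the median gene. Its normalized counts were 674 and 787 in A, against 812 and 863 in B. The B libraries were higher by less than the gap between the A libraries, with an authors' deposited log2 fold change of 0.20 (adjusted p = 0.872) and 0.19 (SE 0.13, adjusted p = 0.272) by limma-voom.

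unc-13 (ZK524.2, chromosome I, 7422781 to 7454098) encodes a large priming protein that opens syntaxin for assembly. The authors' deposited table lists it untested at 0.968 FPKM for wild type and 0.547 FPKM under the RNAi label. This log2 fold change of -0.82 lay next to the median gene. The rRNA-depleted libraries held 597 and 566 normalized counts in A and 491 and 471 in B. They did not overlap, yet neither the authors' deposited test (-0.27, adjusted p = 0.875) nor limma-voom (-0.32, SE 0.13, adjusted p = 0.0857) called it. unc-13 and unc-18 were the untested members with the smallest poly(A) differences.

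unc-10 (T10A3.1, chromosome X, locus 7238632 to 7280275) encodes RIM, the active zone scaffold that binds RAB-3. The authors' deposited table lists 1.604 FPKM in wild type and 0.255 FPKM in the RNAi group, 6.29-fold lower. The untested log2 fold change of -2.65 carried the widest implied SE of the list, 2.66, and an unadjusted p of 0.318. Its normalized counts were 121 and 136 in A and 118 and 106 in B, with a log2 fold change of -0.19 (SE 0.24, adjusted p = 0.578) by limma-voom. The lowest A library, at 120.5, and the highest B library, at 118.1, almost touched. The authors' locus for it spans 11 other genes.

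The members lowest in B relative to A were rab-3, snt-1 and sng-1, while snb-1, the vesicle SNARE gene, lay higher in B. rab-3 (C18A3.6, chromosome II, locus 5720144 to 5727632) encodes the GTPase of synaptic vesicles. The authors' deposited table holds 4.90 FPKM for wild type and 0.702 FPKM under the RNAi label, an untested ratio of 6.98. The log2 fold change was -2.80 with an implied SE of 1.34 and an unadjusted p of 0.0367.

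In rRNA-depleted RNA rab-3 had 217 and 70 counts in A and 408 and 159 in B. Scaled by depth these are 294 and 281 normalized counts in A and 112 and 103 in B. The libraries of each condition were almost the same, and B was 2.67-fold below A. rab-3 was lower in B by the authors' deposited test (log2 fold change -1.42, adjusted p = 0.00557) and by limma-voom (-1.45, SE 0.19, adjusted p = 0.000535). Its 3' end touches C18A3.1 (damt-1) on the opposite strand. That gene averaged 241 in A and 239 in B in normalized counts, beside the difference in rab-3. An antisense ncRNA inside rab-3 had 6 and 0 counts in A and 11 and 5 in B. The ncRNA genes C18A3.18, on the strand of rab-3, and C18A3.16, on the other, overlap its 5' end. Neither had an rRNA-depleted value.

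snt-1 (F31E8.2, chromosome II, 6810920 to 6816411) encodes synaptotagmin, the calcium sensor of fast release. The authors' deposited table gives 6.46 FPKM in wild type and 1.12 FPKM in the RNAi group, an untested ratio of 5.80 (log2 fold change -2.53, implied SE 1.17, unadjusted p = 0.0297). The counts were 272 and 107 in A and 597 and 226 in B, or 368 and 430 normalized counts in A and 164 and 147 in B. Both B libraries were below both A libraries by more than the spread within either condition. The authors' deposited test called it lower in B by 1.36 on the log2 scale (-1.36, adjusted p = 0.00781), 2.56-fold, and limma-voom gave -1.33 (SE 0.17, adjusted p = 0.000543). No other annotated gene overlaps snt-1.

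sng-1 (T08A9.3, chromosome X, 7327559 to 7329631) encodes synaptogyrin, a membrane protein of synaptic vesicles. The authors' deposited table lists 9.62 FPKM for wild type and 2.42 FPKM under the RNAi label. The log2 fold change of -1.99 (SE 0.98) did not pass (q = 0.136). Its counts were low, 84 and 29 in A and 135 and 73 in B, or 113.7 and 116.4 normalized counts in A and 37.2 and 47.4 in B. The conditions were apart. The authors' deposited test did not call its log2 fold change of -1.44 (adjusted p = 0.101), and limma-voom did (-1.56, SE 0.28, adjusted p = 0.00298). Its B mean of 42.3 normalized counts was the lowest of the 9 members.

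**Figure D2:**
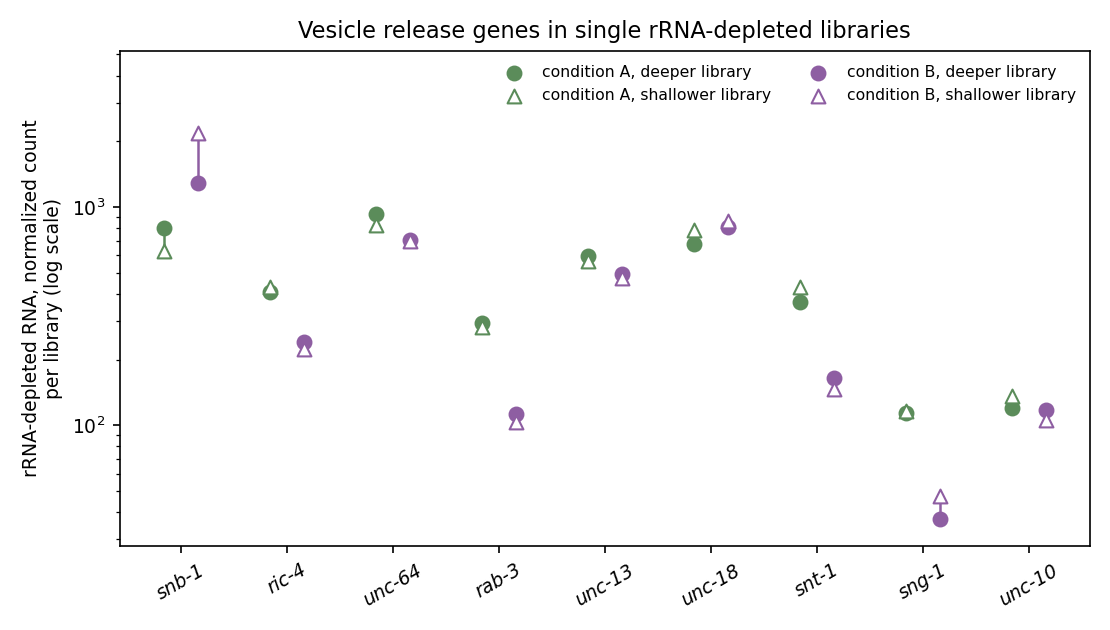
Normalized counts of 9 release genes in each of the 4 rRNA-depleted libraries on a log axis, with the deeper and the shallower library of conditions A and B as separate points. rab-3, snt-1, sng-1 and ric-4 lie clearly lower in both B libraries, snb-1 lies higher in both with a wide gap between them, and unc-31 is left out.

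unc-31 (ZK897.1, chromosome IV, 12773838 to 12787489) encodes CAPS, which acts in the release of dense core vesicles. Its poly(A) level was the lowest of the list, 0.266 FPKM in wild type and 0.0783 FPKM in the RNAi group, untested in the authors' deposited table (log2 fold change -1.76, implied SE 1.61). Its rRNA-depleted mean was by far the highest, 143600 in A and 28610 in B. Inside unc-31 and on its strand lie 3 snRNA genes, whose own means in the authors' deposited table were 47106, 47727 and 95188 in A, against 9665, 8940 and 18634 in B. An ncRNA gene on the other strand at each of 2 of them had exactly the same means. The value is therefore not given as unc-31 mRNA, and these snRNA genes are listed at 0 FPKM in poly(A) RNA.

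**Figure D3:**
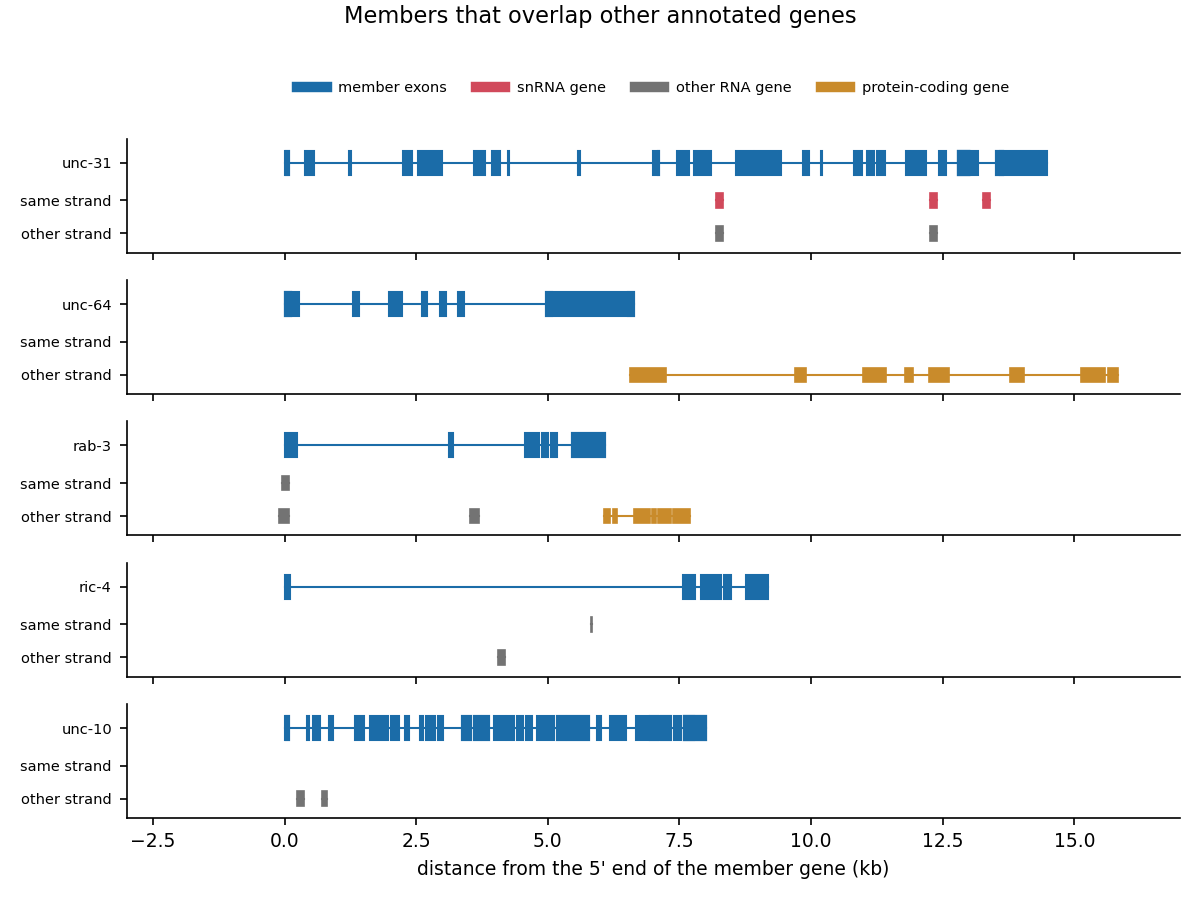
Exons (boxes) of the 5 release genes that overlap another gene in the WBcel235 annotation, in kilobases from the gene's 5' end, with the overlapping genes drawn below by strand. The 3 snRNA genes lie inside unc-31, and set-25 and damt-1 reach only the 3' ends of unc-64 and rab-3. The other 5 members have no overlapping gene and are not drawn.

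The order of levels differed between members by large factors. In wild type the FPKM ran, from high to low, snb-1, unc-64, ric-4, sng-1, snt-1, rab-3, unc-18, unc-10, unc-13 and unc-31. snb-1 stood 9.20 times above unc-64. The 3 members with the longest annotated exons, unc-13 with 6864 bases, unc-31 with 5237 and unc-10 with 4950, were the 3 lowest. With 1 value per group, whether neighbours in this order differ could not be tested. Per kilobase of annotated exon, the rRNA-depleted means of A placed snb-1 first with 888 normalized counts, then unc-64 with 342 and ric-4 with 337, and unc-10 last with 25.96. unc-18 with 274 followed ric-4 there, and unc-31 was not ranked. unc-64 and ric-4 in A differed by less than the gap between the libraries of unc-64. The snRNA genes inside unc-31 lie between its annotated exons, yet its mean in A was 143600. Reads in introns may thus have been counted, and a mean divided by exon length need not be a level per base.

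The poly(A) differences were read against genes of like treatment in the table. The 4 tested members had a median log2 fold change of -1.70, beside -0.90 over 8244 tested genes with both values above 0, of which 81.3% were lower. The 6 untested members had a median of -2.15, beside -0.84 over 5766 untested genes with a wild-type FPKM in the same range, of which 77.3% were lower. Over all 10 the median was -1.88, and 8 of 10 lay below the median tested gene. At least 2-fold lower were 7 of 10 members, against 42.9% of all genes. Relative to the median gene none of the 4 tested members passed (adjusted p of 0.608 or higher), against 6.15% of all genes tested that way and 0.509% on the lower side.

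In rRNA-depleted RNA the median log2 fold change of 9 members was -0.32, beside 0.02 over all genes, and 7 of 9 had a lower mean in B, against 43.3% of all genes fitted. Both B libraries lay below both A libraries for 7 of 9 members, against 29.4% of all genes fitted, and above them for 2, snb-1 and unc-18, against 41.7%. limma-voom called 5 members lower and 1 higher. Over all genes it called 35.7% (16.3% lower and 19.4% higher), so such calls were common in these 4 libraries. The members did not move as 1 block there. rab-3, snt-1 and sng-1 were lowest relative to A, ric-4 and unc-64 lay between, unc-13, unc-10 and unc-18 stayed within 0.32 of A on the log2 scale, and snb-1 was higher.

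**Figure D4:**
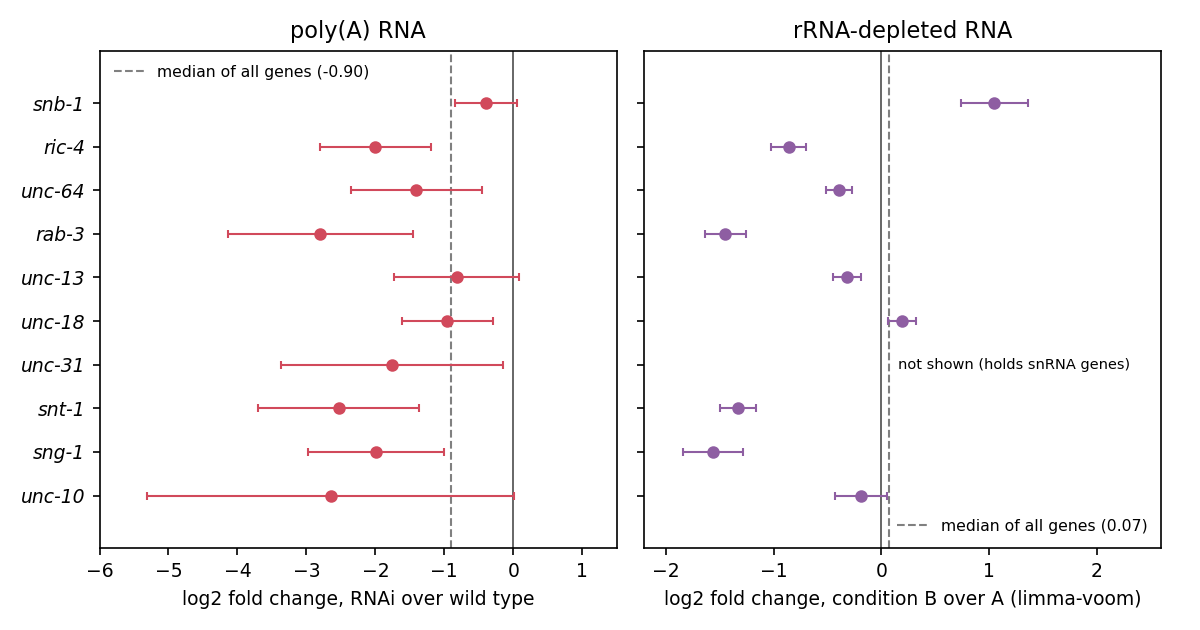
Log2 fold changes of the release genes, on the left in poly(A) RNA (RNAi over wild type, bars of 1 implied SE) and on the right in rRNA-depleted RNA (B over A, limma-voom, bars of 1 SE), with the median gene as a dashed line. All 10 poly(A) values lie below 0 and 8 lie below the median at -0.90, while the rRNA-depleted values run from -1.56 for sng-1 to 1.05 for snb-1.

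Other genes of the synapse were taken from 9 lists with 129 genes, of which 128 were matched. In poly(A) RNA 18 of 77 tested genes were lower in the group labelled RNAi by the authors' q-value, against 13.6% of all tested genes. None was higher, against 3.12%. In rRNA-depleted RNA 6 of 128 were lower in B, against 2.77% of all genes, and none higher, against 5.54%. Not all of these 128 had enough counts to be fitted by limma-voom. Among those fitted, 31 were lower and 6 higher, against 16.3% and 19.4% of all genes fitted. The same shares over all genes apply to the counts of single lists below. The lists include many genes that work in every cell, and they were chosen with results of these data known.

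Among 13 regulators of release, which include the calcium channel subunits, 1 of 5 tested genes passed. pkc-1, a protein kinase C that promotes release, fell from 15.7 FPKM to 4.92 FPKM in the authors' deposited table (q = 0.0195). Of 8 active zone genes none had been tested. All 8 were lower in FPKM, against 76.4% of all genes with both values above 0, with a median log2 fold change of -1.69. The ends of that list were elks-1, 4.63 FPKM in wild type and 4.60 in the RNAi group, and cla-1, the Clarinet scaffold, 3.39 and 0.528 FPKM in the authors' deposited table. None of these 21 genes was called by the authors in rRNA-depleted RNA, while limma-voom called 3 regulators lower, and 2 active zone genes lower and 3 higher.

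The 33 other SNARE, synaptotagmin and SM genes serve mostly membrane traffic in all cells, and 2 of 24 tested were lower. snap-29, a SNAP-25 relative of internal membranes, fell from 41.4 to 10.6 FPKM (q = 0.00382) and nsf-1, the ATPase that takes SNARE complexes apart, from 27.7 to 8.40 FPKM (q = 0.015) in the authors' deposited table. Their median was -0.98, close to that of all genes. In rRNA-depleted RNA syx-7, an endosomal syntaxin, averaged 1026 (A) and 602 (B) normalized counts in the authors' deposited table (adjusted p = 0.0278). By limma-voom 9 genes of this list were lower in B and 0 higher.

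Of the vesicle transport genes 1 of 8 tested was lower, arl-8, a GTPase that drives axonal transport of vesicles, with 339 and 102 FPKM in the authors' deposited table (q = 0.00465). Of the endocytosis genes 3 of 11 were lower and the list median was -1.69. They were unc-26, the synaptojanin phosphatase, with 10.7 and 3.31 FPKM (q = 0.0391), clic-1, the clathrin light chain, with 407 and 92.8 FPKM (q = 0.0024), and dpy-23, an AP2 subunit, with 21.7 and 6.74 FPKM (q = 0.0275) in the authors' deposited table. Clathrin and AP2 also act outside neurons. The authors' test called no gene of either list in rRNA-depleted RNA, while limma-voom called unc-116 (kinesin heavy chain, 0.29, adjusted p = 0.0179) higher in B, and unc-41 (stonin, -0.69, adjusted p = 0.0161) and aps-2 (an AP2 subunit, -0.94, adjusted p = 0.00583) lower, as log2 fold changes.

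Among the transmitter genes tbh-1, the enzyme that makes octopamine, stood out in both tables. Its FPKM was 74.8 in wild type and 13.2 in the RNAi group in the authors' deposited table (q = 0.000187), the only tested gene of the 9 lists that also passed as lower than the median gene (adjusted p = 0.0344). Its rRNA-depleted counts were 3573 and 1274 in A and 4013 and 1755 in B, and the authors' deposited means were 4975 and 1122 normalized counts. tdc-1, the enzyme before it in octopamine synthesis, had 4545 in A and 2909 in B (adjusted p = 0.0302), and snf-11, a GABA transporter, 236 and 74.3 (adjusted p = 0.00249) in the authors' deposited table. tbh-1 and tdc-1 are also known from the gonadal sheath and uterine cells, so they are not read as neuronal here.

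Of the postsynaptic receptor genes 1 had been tested in poly(A) RNA and did not pass. In rRNA-depleted RNA the authors' test called 0 of them, and limma-voom called 2 lower in B and 0 higher. The ends of that list in poly(A) RNA were the glutamate receptor nmr-1, with 0.0108 and 0.0614 FPKM, and the GABA receptor exp-1, with 0.535 and 0.0571 FPKM in the authors' deposited table. Both were untested and at low levels, with wide implied SEs of 2.70 for nmr-1 and 5.50 for exp-1. Of the dense core vesicle genes 2 of 5 tested were lower, ida-1, a vesicle membrane protein, with 25.1 and 8.05 FPKM (q = 0.0455), and egl-3, a proprotein convertase, with 48.6 and 12.3 FPKM (q = 0.0154) in the authors' deposited table. The authors' test called no gene of that list in rRNA-depleted RNA. limma-voom called egl-3 higher in B by 0.60 on the log2 scale (adjusted p = 0.0129) and sbt-1, the 7B2 homologue, lower (-0.73, adjusted p = 0.00389).

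The vacuolar ATPase, which fills vesicles with protons but works in many tissues, had 8 of 19 subunit genes lower in poly(A) RNA, vha-2, vha-8, vha-9, vha-12, vha-13, vha-15, vha-17 and vha-19. vha-2 had 2706 and 779 FPKM (q = 0.00389) and vha-19 63.2 and 16.8 FPKM (q = 0.00392) in the authors' deposited table. Its median of -1.09 was near that of all tested genes. In rRNA-depleted RNA 2 subunit genes were lower in B in the authors' deposited table. They were vha-1, with 2523 in A and 1577 in B (adjusted p = 0.0186), and vha-14, with 3768 and 2446 (adjusted p = 0.0418). By limma-voom 6 subunit genes were lower in B and 1 was higher.

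**Figure D5:**
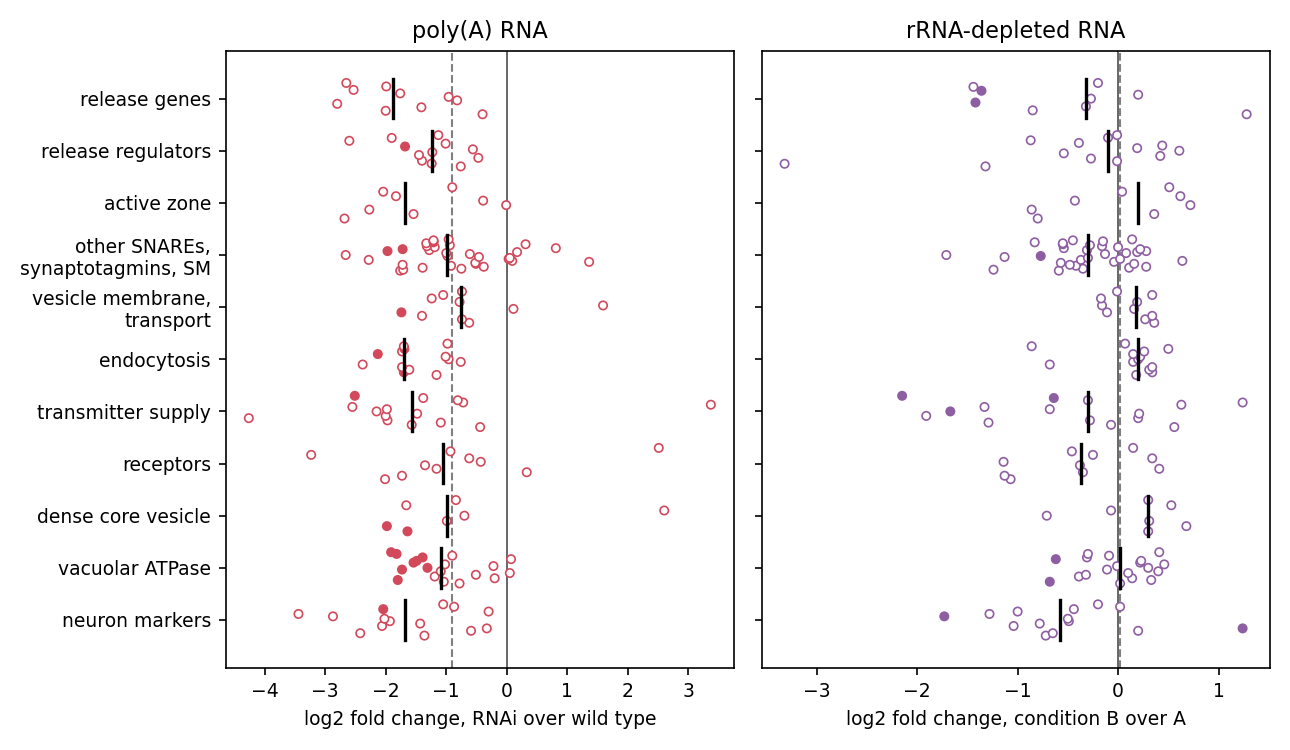
Log2 fold changes of each gene of the release list and of 9 wider synaptic lists and the neuron markers, in poly(A) and in rRNA-depleted RNA. Filled points passed the authors' test, black bars are list medians and the dashed line is the median gene. In poly(A) RNA every list median lies below 0, and in rRNA-depleted RNA the medians lie between -0.57 for the neuron markers and 0.30 for the dense core vesicle genes.

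Markers of neurons from outside the release list were read beside the release genes, and whether they are limited to neurons was not tested. All 14 had a lower FPKM in the RNAi group, against 76.4% of all genes with both values above 0. Their median log2 fold change was -1.68, and their summed level was 156 FPKM in wild type and 70.0 FPKM in the RNAi group. Of 4 tested, 1 passed, mec-7, a tubulin of touch neurons (q = 0.0394 in the authors' deposited table). Their median among rRNA-depleted values was -0.57, with unc-9, a gap junction innexin, lower (238 in A and 71.5 in B, adjusted p = 0.000405) and unc-44, an ankyrin, higher (2353 and 5576, adjusted p = 9.38e-09) in the authors' deposited table. Of these 14 markers 11 had a lower rRNA-depleted mean in B, against 43.3% of all genes fitted by limma-voom. Their summed level there was 4587 in A and 7475 in B. The other 13 summed to 2234 in A and 1899 in B, with unc-44 left out after its value was seen. Among those 13, unc-33 (875 in A and 1002 in B) and mec-12 (210 and 213) also had a higher mean in B.

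Markers of other tissues also differed between the conditions, counted by the authors' tests. Over all genes these tests called 2.77% lower and 5.54% higher in B. In poly(A) RNA they called 13.6% of all tested genes lower and 3.12% higher in the group labelled RNAi. Of 8 body wall muscle markers 6 were higher in B, with a summed level of 18980 in A and 40540 in B, while in poly(A) RNA none of 4 tested passed and their median log2 fold change was -0.43. Of 8 sperm markers 7 were higher in B, with a summed level of 58.4 in A and 4472 in B and 4 of them at 0 in A, and 5 of 7 tested were higher in the group labelled RNAi. Of 7 hypodermis markers 4 were higher in B, and of 6 tested in poly(A) RNA 2 were higher and 1 was lower in the group labelled RNAi. All 3 tested pharynx markers were lower in the group labelled RNAi, whereas in rRNA-depleted RNA 1 of 5 was lower in B and the list median was 0.29. Of 8 intestine markers 1 was higher and 2 were lower in B, and 2 of 6 tested were lower in the group labelled RNAi. Of 9 germline markers 1 was higher in B, and 3 of 9 were lower in the group labelled RNAi. The part of tissue makeup in the values of the release genes was not tested.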

How the data were processed

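Young adult worms gave 2 poly(A) and 2 rRNA-depleted libraries for wild type and for CstF50 RNAi. Groups came from the sample titles. The authors used Bowtie, DESeq and the build ce10, per the submitters' processing notes. How reads were counted, and with which annotation, is not given in the sources used here. For poly(A) RNA the authors deposited 1 FPKM per group beside its p-value and q-value. For rRNA-depleted RNA they deposited condition means of counts divided by size factors, per the file headers, beside p-values before and after adjustment.

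Genes were called where the q-value, or the p-value after adjustment, was under 0.05, and fold changes were recomputed from the group values. The test against the median gene used a normal deviate with Benjamini-Hochberg adjustment. Whole counts per library were recovered for 25479 (A) and 25399 (B) of 25640 genes where a unique solution matched the printed mean within 0.8 units of its last digit, for means up to 30000. These genes hold 12.1% and 42.8% of the normalized counts. The size factors were 0.7388 and 0.2491 in A and 3.6322 and 1.5407 in B. On simulated means 100.0% of A and 91.81% of B were solved, all of them correctly. limma 3.58.1 (voom, TMM normalization) was fitted to 16830 genes with at least 10 counts in 2 libraries, after a check on simulated counts.

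The ce10 loci are those of the authors' table, counted from 1. Gene models and overlaps came from the Ensembl annotation of WBcel235. The members and gene lists were chosen with earlier results of these data known. All 10 members, every wider-list gene called by the authors, and otherwise the highest and lowest of a list were to be named. Single marker genes, and wider-list genes named for a limma-voom call alone, were added after their values were seen. p-values rest on 2 libraries per group and may measure technical spread. unc-17 was not matched.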

Additional observations from a re-analysis of the deposited data

How the results depend on the processing

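In poly(A) RNA 0 of 4 tested members were called under the authors' q-value, and 1, ric-4, at a threshold of 0.1. At that threshold 2166 of all 8513 tested genes were called. Against the median gene snb-1 changed sign, to 0.49 (adjusted p = 0.735). In rRNA-depleted RNA the members called lower in B numbered 2 by the authors' test, and 1 when members overlapping an RNA gene were left out. They numbered 5 by limma-voom with TMM or with the recovered size factors, and 4 without a filter on low counts. Over all genes fitted, limma-voom with TMM called 16.3% lower and 19.4% higher. Shares over all genes under its other settings are not given here. Leaving out 1 library at a time gave 4 to 5. The members called higher numbered 0 by the authors' test and 1 under each limma-voom setting, and 1 with any 1 library left out. ric-4, rab-3, snt-1 and sng-1 were called lower in all limma-voom settings. unc-64 lost its call without the deeper A library (adjusted p = 0.379), without the shallower one (0.0725) and without the filter on low counts. The cause of these differences between tests was not tested. Leaving out a library leaves a lone sample assumed to vary like the other condition. No paired analysis was possible because the deposited columns carry no replicate numbers. Poly(A) precision is limited by 1 value per group and an unknown depth. Over all genes the authors called 1427 in poly(A) RNA, against 507 relative to the median gene and 510 when p-values were adjusted over all genes of the table.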
